A study of Mus musculus with 36 samples.

Results

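The chemokine ligands are the small secreted or membrane-tethered proteins that guide leukocytes through tissue. They were taken here as the protein-coding rows of the expression table whose gene symbol starts with Ccl, Cxcl, Cx3cl or Xcl followed by a number. That rule gave 39 genes out of 56748 rows, of which 21970 were protein-coding. Pf4 and Ppbp, chemokine ligands that kept older symbols, fell outside the rule.

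The expression of these genes was measured by RNA sequencing of visceral white adipose tissue (visWAT, labelled epididymal adipose tissue) and of liver from the same 18 male C57BL/6J mice, which gave 36 libraries. The MlklAdi-KO mice carried floxed alleles of Mlkl, which encodes the necroptosis effector MLKL, together with Adipo-Cre, a Cre recombinase that acts in mature adipocytes, so that the other cells of the tissue kept the gene. The WT mice were littermates with the floxed alleles and no Cre. Mice were 16 weeks old when feeding began and were fed for 16 weeks with a normal chow diet (NCD, 4 WT and 4 MlklAdi-KO mice) or a high-fat diet (HFD, 5 WT and 5 MlklAdi-KO mice), so that each tissue had 4 groups. Mice are named by the numbers in the labels, and values by mouse run in the order 165, 180, 182 and 183 for WT on NCD, 166, 179, 197 and 199 for MlklAdi-KO on NCD, 154, 155, 161, 162 and 164 for WT on HFD, and 151, 152, 153, 156 and 157 for MlklAdi-KO on HFD. Values are FPKM, fragments per kilobase of gene scaled by a library size, which compare levels per length of gene.

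A chemokine is read by G protein-coupled receptors on the migrating cell, and most receptors answer to several ligands. CCL2, CCL7, CCL8 and CCL12 act on CCR2 and draw monocytes, CCL3, CCL4, CCL5, CCL6 and CCL9 are inflammatory CC ligands that draw monocytes, macrophages or T cells, CCL11 and CCL24 act on CCR3 and draw eosinophils, and CCL19 and CCL21 guide lymphocytes and dendritic cells through CCR7. Among the CXC ligands, CXCL1 and CXCL2 draw neutrophils through CXCR2, CXCL9, CXCL10 and CXCL11 are induced by interferon and act on CXCR3, CXCL12 is the constitutive ligand of CXCR4, and CXCL13 guides B cells. Obese visceral fat is known for accumulating macrophages, and CCL2 is among the ligands that recruit their precursors.

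The targeted gene separated the visWAT genotypes on HFD, at 4.58 to 6.28 FPKM of Mlkl in WT and 2.33 to 2.72 FPKM in MlklAdi-KO mice. On NCD the library labelled WT mouse 182 stood at 2.29 FPKM, within the MlklAdi-KO range of 1.96 to 2.49 FPKM, while the other WT mice were at 3.91 to 5.11 FPKM. In a second NCD library, visWAT of WT mouse 183, genes of the epididymis and seminal vesicle took 17.6% of the reads, and the counts of called ligands that rest on these mice are given with and without both. Each library held 20875463 to 30322171 reads on genes. Adipocyte markers (6 of 6 above 0.5 FPKM in every visWAT group) and hepatocyte markers (5 of 5 in every liver group) matched the labelled tissues. Hepatocyte markers also summed to 858 to 1976 FPKM in visWAT of WT mice on NCD and to 23.6 to 153 FPKM on HFD, beside 42330 FPKM or more in every liver. Between these diets only 1 of the 5 was lower at a limma adjusted p under 0.05 and 0 were higher. The median log2 fold change of the 5 was 0.0859, so the sums do not stand for all of them.

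visWAT expressed more of the ligands than liver. A mean of 0.5 FPKM over the 18 mice was reached by 23 of the 39 ligands in visWAT and by 16 in liver. Of all protein-coding genes, 55.31% and 50.23% reached this level. The 14 ligands that reached it in both tissues were Ccl2, Ccl5, Ccl6, Ccl9, Ccl21a, Ccl24, Ccl27a, Cxcl1, Cxcl9, Cxcl10, Cxcl12, Cxcl13, Cxcl14 and Cxcl16. In visWAT only, 9 reached it, namely the CCR2 ligands Ccl7, Ccl8 and Ccl12, the inflammatory ligands Ccl3 and Ccl4, the eosinophil ligand Ccl11, the CCR7 ligand Ccl19, the CCR4 ligand Ccl22 and the membrane-bound ligand Cx3cl1. In liver only, Ccl25 and Cxcl11 reached it, and Ccl25 missed it in visWAT by little, with a mean of 0.497 FPKM.

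The remaining 14 ligands had a mean over the 18 mice under 0.5 FPKM in both tissues. They were Ccl1, Ccl17, Ccl20, Ccl21b, Ccl21d, Ccl26, Ccl27b, Ccl28, Cxcl2, Cxcl3, Cxcl5, Cxcl15, Cxcl17 and Xcl1, of which Ccl17, Ccl28, Cxcl2 and Xcl1 reached 0.5 FPKM in at least 1 visWAT group. The number that reached 0.5 FPKM by group was 21, 23, 25 and 24 in visWAT of WT mice on NCD, MlklAdi-KO mice on NCD, WT mice on HFD and MlklAdi-KO mice on HFD, and 17, 16, 15 and 16 in liver in the same order. With a mean of 1 FPKM as the limit the totals were 21 in visWAT and 11 in liver, and with 0.1 FPKM they were 28 and 22. Ccl21a, Ccl21b and Ccl21d, like Ccl27a and Ccl27b, are near-identical copies among which reads could be split, so that their separate levels are uncertain.

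**Figure D1:**
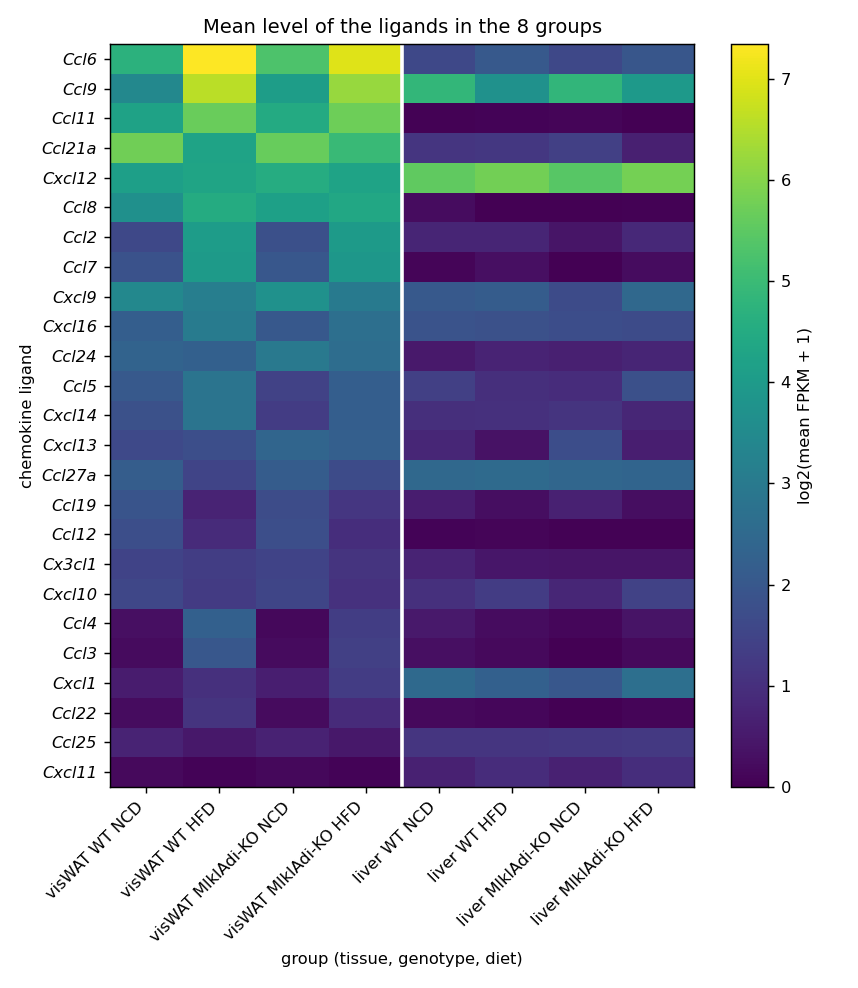
Mean FPKM of the 25 ligands that reached a mean of 0.5 FPKM in either tissue, on a colour scale of log2(mean FPKM + 1), with 1 row for each ligand and 1 column for each group of 4 or 5 mice. Ccl6, Ccl9 and Ccl11 rise from the NCD to the HFD columns of visWAT, while Cxcl12 and Ccl9 lead in liver.

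The make-up of the ligands differed between tissues and diets. The ligand FPKM summed to 150.4 to 255.5 in each visWAT library on NCD, to 367.3 to 509.9 in WT mice on HFD and to 298.7 to 469.9 in MlklAdi-KO mice on HFD, so that no library on HFD overlapped those on NCD. In visWAT of the WT mice on NCD the most abundant ligand was Ccl21a, with 18.88 to 35.91% of the sum in each mouse, whereas in every WT mouse on HFD it was Ccl6, with 32.72 to 38.18%. The library of MlklAdi-KO mouse 156 on HFD again had Ccl21a as its most abundant ligand, with 28.33%. In all 18 livers it was Cxcl12, with 38.54 to 62.83% of a sum of 83.28 to 126.8 FPKM.

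The first question was what HFD did to the ligands in visWAT of WT mice. The 14161 genes with a mean of at least 0.5 FPKM over these 9 libraries were tested with limma on log2(FPKM + 1), and a gene was called at a Benjamini-Hochberg adjusted p under 0.05. Of the 24 ligands tested, 13 were higher on HFD and 4 were lower, whereas 21.9% of all genes tested were higher and 15.8% lower, 37.8% in all. The ligands that rose were those of CCR2 (Ccl2, Ccl7, Ccl8), the inflammatory CC ligands (Ccl3, Ccl4, Ccl5, Ccl6, Ccl9), and Ccl11, Ccl22, Cxcl1, Cxcl14 and Cxcl16. Those that fell were the CCR7 ligands Ccl19 and Ccl21a, the CCR2 ligand Ccl12 and the CCR10 ligand Ccl27a. The median log2 fold change was 0.64 over the tested ligands and -0.01 over all tested genes. Among the 24, Ccl3, Ccl4, Ccl22, Cxcl1 and Xcl1 had means under 0.5 FPKM on NCD and entered the test through their level on HFD, so that these counts describe the ligands that could be tested and not the family.

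Ccl9, a ligand of CCR1, had the largest log2 fold change on the log2(FPKM + 1) scale. It stood at 12.1, 8.01, 8.05 and 10.8 FPKM in the 4 WT mice on NCD and at 86.5, 117, 107, 86.7 and 79.2 FPKM in the 5 on HFD. The groups were far apart, with means of 9.76 ± 2.1 (SD, n = 4) and 95.3 ± 16 (SD, n = 5), a ratio of 9.76 and a log2 fold change of 3.17 (SE 0.158, limma adjusted p = 8.75e-07). Its neighbour Ccl6, another CCR1 ligand and the most abundant ligand in visWAT of each WT mouse on HFD, was at 31.3, 19.0, 22.8 and 29.2 FPKM on NCD. On HFD it reached 166, 195, 178, 140 and 128 FPKM, a log2 fold change of 2.62 (SE 0.175, limma adjusted p = 4.32e-06) with every mouse on HFD above every mouse on NCD.

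Ccl2, the classical monocyte attractant, was at 2.25, 0.791, 3.44 and 1.61 FPKM in the WT mice on NCD and at 12.7, 25.0, 15.6, 12 and 13.7 FPKM on HFD. Mouse 155 had the highest value and the other mice on HFD lay close together, all well above NCD (log2 fold change 2.50, SE 0.278, limma adjusted p = 0.000108). Ccl7, which shares the receptor CCR2, was at 2.53, 1.44, 4.24 and 2.08 FPKM on NCD and at 12.6, 23.2, 13.8, 11.2 and 14.4 FPKM on HFD (log2 fold change 2.18, SE 0.246, limma adjusted p = 0.000118). Mouse 155 was again the highest, and the order of the NCD mice was the same as for Ccl2, with mouse 182 highest and mouse 180 lowest.

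Ccl3 and Ccl4, inflammatory ligands also known as MIP-1 alpha and MIP-1 beta, were close to absent on NCD. Ccl4 was at 0.128, 0.146, 0 and 0.692 FPKM on NCD and at 2.20, 5.55, 3.87, 2.98 and 4.11 FPKM on HFD (log2 fold change 1.92, SE 0.218, limma adjusted p = 0.000122). Ccl3 was at 0.0367, 0.042, 0.289 and 0.256 FPKM on NCD and at 1.59, 4.12, 3.69, 2.24 and 3.37 FPKM on HFD (log2 fold change 1.76, SE 0.198, limma adjusted p = 0.000118). For both genes the lowest mouse on HFD lay above the highest on NCD, and the added 1 FPKM of the log scale makes these fold changes smaller than the ratios of the means, 15.5 for Ccl4 and 19.3 for Ccl3.

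Ccl11, or eotaxin, rose with little spread between mice. It was at 20.4, 16.8, 18.5 and 15.5 FPKM on NCD and at 47.1, 52.4, 51.2, 49.4 and 49.1 FPKM on HFD. The SD within each group was about 2 FPKM, and the rise by a ratio of 2.80 (log2 fold change 1.44, SE 0.0874, limma adjusted p = 2.51e-06) had a smaller adjusted p than that of Ccl2 or Ccl7. Ccl24, the other eosinophil ligand with a measurable level, was at 4.09 ± 1.4 (SD, n = 4) and 3.74 ± 0.89 FPKM (SD, n = 5) and was not called.

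Ccl21a, the lymph node ligand of CCR7, fell. It was at 79.0, 57.2, 28.4 and 48.7 FPKM in the WT mice on NCD and at 28.4, 2.93, 16.9, 35.3 and 6.86 FPKM on HFD. The ranges overlapped, since mouse 162 on HFD was above mouse 182 on NCD (log2 fold change -1.84, SE 0.635, limma adjusted p = 0.0464). The call was lost with any of mice 165, 180, 183, 155, 161 or 164 left out (adjusted p = 0.0654 to 0.113), and in edgeR (adjusted p = 0.0594). Ccl19, which binds the same receptor, fell from 2.72 ± 1.4 (SD, n = 4) to 0.660 ± 0.45 FPKM (SD, n = 5; log2 fold change -1.13, SE 0.284, limma adjusted p = 0.0123), and in this case too the ranges overlapped.

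Of the other ligands that rose, Cxcl14 went from 2.55 ± 2.1 to 6.05 ± 1.2 FPKM, the membrane-bound CXCR6 ligand Cxcl16 from 3.59 ± 1.7 to 7.35 ± 0.86 FPKM and the CCR4 ligand Ccl22 from 0.184 ± 0.070 to 1.13 ± 0.44 FPKM (SD, n = 4 and n = 5, log2 fold changes of 1.13, 0.92 and 0.83). The 5 called ligands not described so far had log2 fold changes between 0.48 and 0.82 in size. Ccl5, which draws T cells, went from 3.13 ± 1.3 to 6.10 ± 1.5 FPKM, Ccl8 from 11.8 ± 3.1 to 21.9 ± 6.3 FPKM and the neutrophil attractant Cxcl1 from 0.471 ± 0.24 to 1.04 ± 0.18 FPKM. Ccl12 fell from 2.37 ± 1.1 to 0.876 ± 0.37 FPKM and Ccl27a from 3.47 ± 0.64 to 1.87 ± 0.16 FPKM. The call of Ccl8 was lost with any of mice 165, 180, 183, 154, 155, 161 or 162 left out (adjusted p = 0.0663 to 0.0889), that of Ccl12 without mouse 180 (adjusted p = 0.056) and that of Cxcl14 in edgeR (adjusted p = 0.0603).

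The interferon-induced CXCR3 ligands did not share in the rise. Cxcl9 was at 9.80 ± 2.7 FPKM on NCD and 7.80 ± 2.6 FPKM on HFD, and Cxcl10 at 1.95 ± 0.64 and 1.42 ± 0.48 FPKM (SD, n = 4 and n = 5). Neither was called, and neither were Cxcl12 (16.7 ± 2.6 and 18.5 ± 0.89 FPKM), Cxcl13, Cx3cl1, Ccl24 or Xcl1. Among the ligands too low for the test, Cxcl2, the CXCR2 ligand made by activated macrophages, was at 0.0862 ± 0.061 FPKM on NCD and 0.741 ± 0.15 FPKM on HFD, without overlap of the groups.

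**Figure D2:**
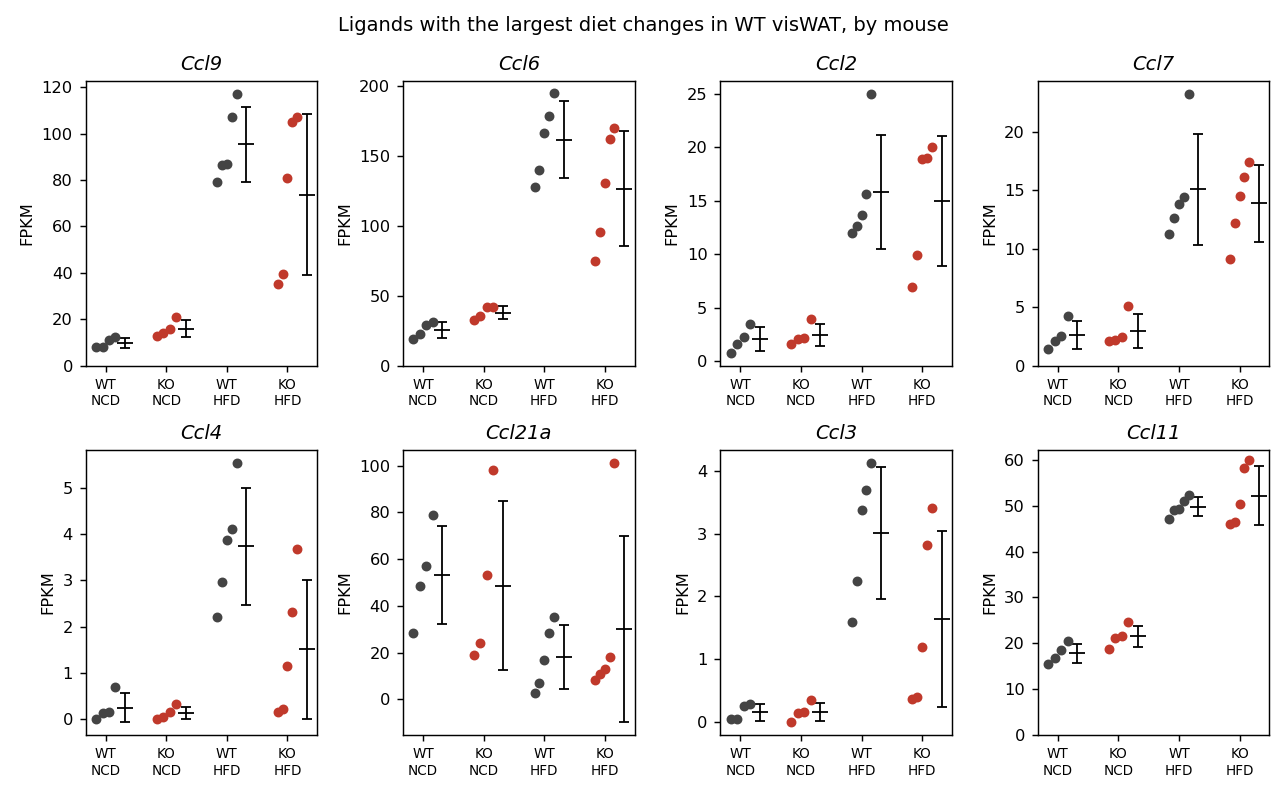
FPKM of the 8 ligands with the largest called changes by diet in WT visWAT, on a linear scale, with 1 point for each of the 18 mice and the mean and SD of each of the 4 groups (KO: MlklAdi-KO). Ccl9, Ccl6, Ccl2 and Ccl7 lie apart between the diets in WT mice, and MlklAdi-KO mice 156 and 157 on HFD are the lowest of the HFD mice for Ccl9, Ccl6 and Ccl4.

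Without overlap between the 5 mice on HFD and the 4 on NCD, 13 of the 24 tested ligands were separated, against 33.4% of all tested genes. With WT NCD mice 182 and 183 both left out, 25 ligands were tested and 16 called, 13 higher and 3 lower. Ccl8 and Ccl12 were then no longer called (limma adjusted p = 0.0558 and 0.0519), and Cxcl2, which entered the test in this setting, was called higher (log2 fold change 0.66, limma adjusted p = 0.00131). Rescaling the values to TPM moved the median of all genes by 0.347 on the log2 scale, and 13 ligands were then higher and 1, Ccl19, lower. Ccl12, Ccl21a and Ccl27a were no longer called on that scale (limma adjusted p = 0.106, 0.107 and 0.272). On TMM-scaled values the counts stayed at 13 higher and 4 lower, so between TPM and TMM only TPM lost 3 of the 4 falls. The calls of Ccl21a and Ccl12 were also lost in other settings given above. TPM divides by the FPKM sum of a library, which was 564718 in WT NCD mouse 183 and 243503 to 309820 in the other WT NCD mice. The part of mouse 183 in these losses was not tested.

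Macrophage markers moved with the same contrast. Of 10 markers, 9 were higher on HFD in WT visWAT, and their FPKM summed to 191 to 287 in each mouse on NCD and 1577 to 2218 on HFD. Fibroblast and progenitor markers summed to 103 to 165 and 297 to 366 FPKM. T cell markers (5 genes) summed to no more than 2.21 FPKM in any of these mice. The part of these shifts in the ligand changes was not tested, and in whole tissue more cells of a type and more RNA per cell cannot be told apart.

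Most of the ligands that rose lie in 2 groups of neighbours on chromosome 11, where many of the tested ligands lie too. The 39 genes fell into 16 groups of neighbours on 8 chromosomes when gaps of up to 500 kb were allowed (mouse build mm39). On chromosome 11, bases 81926397 to 82196516 held Ccl2, Ccl7, Ccl11, Ccl12, Ccl8 and Ccl1, and bases 83416604 to 83555509 held Ccl5, Ccl9, Ccl6, Ccl3 and Ccl4. Of these 11 genes, 9 were among the 13 that rose in WT mice. Each group held 5 of the 24 ligands tested in WT visWAT, and 4 rose in the first and 5 in the second. Whether these groups rose beyond their share of the tested ligands was not tested. Ccl12 lies between Ccl11 and Ccl8, which both rose, and it fell. On chromosome 4, the neighbours Ccl27a, Ccl19 and Ccl21a were the 3 tested ligands of their group, and all 3 fell in WT mice. The WT calls of Ccl27a and Ccl21a were lost on the TPM scale. In MlklAdi-KO mice 1 of the 3 was called lower, Ccl27a (limma adjusted p = 0.00643), and Ccl19 and Ccl21a were not (0.501 and 0.271).

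The promoters of 6 ligands are shown. Ccl2, Ccl7 and Ccl12 were chosen as neighbours with unlike changes. Ccl5, Ccl9 and Cxcl1 were chosen because they rose and held an NF-kappaB match, so their matches are no result. The 250 bases before the start of the canonical transcript (GENCODE vM39 on GRCm39, read on the strand of the gene) are given for Ccl2, Ccl7 and Ccl12 from the first group on chromosome 11 (chr11:81926147-81926396, chr11:81936282-81936531 and chr11:81992395-81992644, forward strand), for Ccl5 and Ccl9 from the second (chr11:83421346-83421595 and chr11:83469468-83469717, reverse strand), and for Cxcl1 on chromosome 5 (chr5:91038844-91039093, forward strand). Capitals mark matches to the NF-kappaB motif, the AP-1 motif TGANTCA, the interferon-stimulated response element or the TATA box TATAAA, searched on both strands, where N is any base.
Ccl2: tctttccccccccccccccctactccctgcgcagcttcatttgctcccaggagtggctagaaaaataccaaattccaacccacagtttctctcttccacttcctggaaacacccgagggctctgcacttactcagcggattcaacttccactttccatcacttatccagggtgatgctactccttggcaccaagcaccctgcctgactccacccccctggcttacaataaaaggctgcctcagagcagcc
Ccl7: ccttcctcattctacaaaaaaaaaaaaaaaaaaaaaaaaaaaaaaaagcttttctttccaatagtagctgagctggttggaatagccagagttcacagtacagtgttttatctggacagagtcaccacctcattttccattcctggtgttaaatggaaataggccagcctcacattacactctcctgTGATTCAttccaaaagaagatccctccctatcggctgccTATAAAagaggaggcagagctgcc
Ccl12: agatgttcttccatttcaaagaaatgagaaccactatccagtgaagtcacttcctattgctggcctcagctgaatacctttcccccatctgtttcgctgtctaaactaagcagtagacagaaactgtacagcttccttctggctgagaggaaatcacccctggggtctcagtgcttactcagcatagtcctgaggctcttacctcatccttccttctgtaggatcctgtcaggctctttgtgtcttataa
Ccl5: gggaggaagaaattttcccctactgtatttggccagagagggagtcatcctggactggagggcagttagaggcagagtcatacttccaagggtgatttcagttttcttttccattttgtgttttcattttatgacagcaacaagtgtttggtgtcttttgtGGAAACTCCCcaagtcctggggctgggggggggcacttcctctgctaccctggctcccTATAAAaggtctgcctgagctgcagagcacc
Ccl9: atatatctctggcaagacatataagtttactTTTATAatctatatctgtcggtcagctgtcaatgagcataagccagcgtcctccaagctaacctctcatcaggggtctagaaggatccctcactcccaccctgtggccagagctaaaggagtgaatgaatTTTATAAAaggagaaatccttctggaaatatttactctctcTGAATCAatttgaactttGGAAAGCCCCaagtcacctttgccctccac
Cxcl1: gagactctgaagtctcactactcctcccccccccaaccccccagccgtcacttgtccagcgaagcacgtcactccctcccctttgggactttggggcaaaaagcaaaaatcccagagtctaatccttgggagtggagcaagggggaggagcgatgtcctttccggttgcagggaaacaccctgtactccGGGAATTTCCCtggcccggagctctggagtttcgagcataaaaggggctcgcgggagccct

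In these windows Ccl9 and Ccl5 each held an NF-kappaB match and a TATA match, Ccl9 also an AP-1 match, Ccl7 an AP-1 and a TATA match, and Cxcl1 an NF-kappaB match, while Ccl2 and Ccl12 held none of the 4 motifs. For Ccl12 the annotation behind the FPKM starts the gene at base 81992671, past the end of its window. The bases between were not searched, so a match there would be missed. Among all 39 ligands, 8 promoters (20.51%) held the NF-kappaB motif, namely Ccl5, Ccl9, Ccl20, Cxcl1, Cxcl2, Cxcl3, Cxcl5 and Cxcl10, against 4.231% of 21770 protein-coding promoters of the same length. The TATA box was in 10 (25.64%) against 11.92%, AP-1 in 4 (10.26%) against 6.174% and the interferon element in 3 (7.692%) against 3.321%. The motif search is a description of letters, and the copies within gene groups share ancestry. Of the 13 ligands that rose in WT visWAT, 3 (23.08%) held the NF-kappaB motif (Ccl5, Ccl9 and Cxcl1), close to the 20.51% of all 39 ligands. None of the 4 that fell held it, and 4 genes are too few to tell this from that share.

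The same contrast in the MlklAdi-KO mice gave 11 ligands higher and 4 lower out of 23 tested, against 23.3% and 20.3% of all tested genes, 43.7% in all. The groups of 13 tested ligands did not overlap, against 38.4% of all tested genes. Ccl3, Ccl4 and Ccl22 had means under 0.5 FPKM on NCD and entered this test through their level on HFD, and 2 of them, Ccl3 and Ccl22, were among the 11 that were higher. The monocyte ligands Ccl2 and Ccl7 rose, whereas Ccl8 was not called (log2 fold change 0.25, limma adjusted p = 0.28) and Ccl12 was lower. Ccl2 was at 3.91, 1.60, 2.09 and 2.15 FPKM on NCD and at 18.8, 19.0, 20.03, 6.94 and 9.93 FPKM on HFD (log2 fold change 2.15, SE 0.32, limma adjusted p = 0.00108). Ccl7 was at 5.10, 2.44, 2.13 and 2.20 FPKM on NCD and at 17.4, 14.5, 16.1, 9.10 and 12.2 FPKM on HFD (log2 fold change 1.93, limma adjusted p = 0.00048). For both genes mice 156 and 157, the last of each list, were the lowest on HFD and still above every mouse on NCD.

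Ccl9 was at 14, 12.9, 21.0 and 15.9 FPKM in MlklAdi-KO mice on NCD and at 80.9, 107, 105, 35.2 and 39.5 FPKM on HFD (log2 fold change 2.01, SE 0.357, limma adjusted p = 0.00237). Ccl6 was at 35.4, 32.5, 42.0 and 41.6 FPKM on NCD and at 130, 162, 170, 75.1 and 95.7 FPKM on HFD (log2 fold change 1.66, SE 0.235, limma adjusted p = 0.000915). Mice 156 and 157 again stood between the NCD mice and the other HFD mice. Ccl11 was at 21.5, 18.8, 21.0 and 24.6 FPKM on NCD and at 58.4, 46.5, 46.1, 50.4 and 60.0 FPKM on HFD, with mice 156 and 157 among the others (log2 fold change 1.24, limma adjusted p = 0.000153).

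Ccl4 was at 0.0462, 0.148, 0.312 and 0 FPKM on NCD and at 1.15, 2.32, 3.69, 0.205 and 0.141 FPKM on HFD in the MlklAdi-KO mice. The 2 last mice were within the NCD range, and the gene was not called (log2 fold change 0.94, limma adjusted p = 0.086), though it was without mouse 156 (adjusted p = 0.038) and in edgeR (adjusted p = 0.029). Ccl3 was at 0.159, 0, 0.345 and 0.135 FPKM on NCD and at 1.19, 2.82, 3.40, 0.398 and 0.366 FPKM on HFD (log2 fold change 1.02, limma adjusted p = 0.044). Its call was lost without any of mice 166, 179, 197, 199, 151, 152 or 153 (adjusted p = 0.0685 to 0.101).

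Among the other calls in MlklAdi-KO mice, Ccl5 rose by 0.80, Cxcl14 by 0.80, Cxcl1 by 0.70 and Ccl22 by 0.68 on the log2 scale (limma adjusted p = 0.011, 0.0336, 0.00275 and 0.00101), and Cxcl16 rose too. Ccl12 fell by 0.79 and Cxcl9 fell by 0.69 on the log2 scale (limma adjusted p = 0.0125 and 0.0122), and Ccl27a and Cxcl12 fell by less. The call of Cxcl14 was lost without any of mice 166, 179, 197, 199, 151 or 152 (adjusted p = 0.0541 to 0.0804), and that of Cxcl12 without mouse 197, 199 or 151 (adjusted p = 0.0731, 0.0621 and 0.0524). Ccl21a was at 24.3, 98.2, 53.2 and 19.1 FPKM on NCD and at 13, 10.9, 17.9, 101 and 8.09 FPKM on HFD. Mouse 156 held the highest value of either diet, and the gene was called neither here (log2 fold change -1.05, limma adjusted p = 0.271) nor in edgeR (adjusted p = 0.488), but without mouse 156 it was (log2 fold change -1.65, adjusted p = 0.024). With that mouse left out, 18 ligands were called, 12 higher and 6 lower.

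The macrophage markers of the MlklAdi-KO mice on HFD varied with the ligands. They summed to 1261, 1918 and 2036 FPKM in mice 151, 152 and 153 and to 663.8 and 620.1 FPKM in mice 156 and 157, against 247 to 423 FPKM on NCD, and 7 of 10 markers were higher and 1 lower on HFD. Hepatocyte markers summed to 1171 FPKM in mouse 156 and 337.3 FPKM in mouse 157, against 59.98 to 91.62 FPKM in the other 3. Of these 5 markers, 1 was lower on HFD and 0 were higher, with a median log2 fold change of 0.469, so their sum need not stand for all of them. The part of either set of markers in the ligand levels was not tested.

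**Figure D3:**
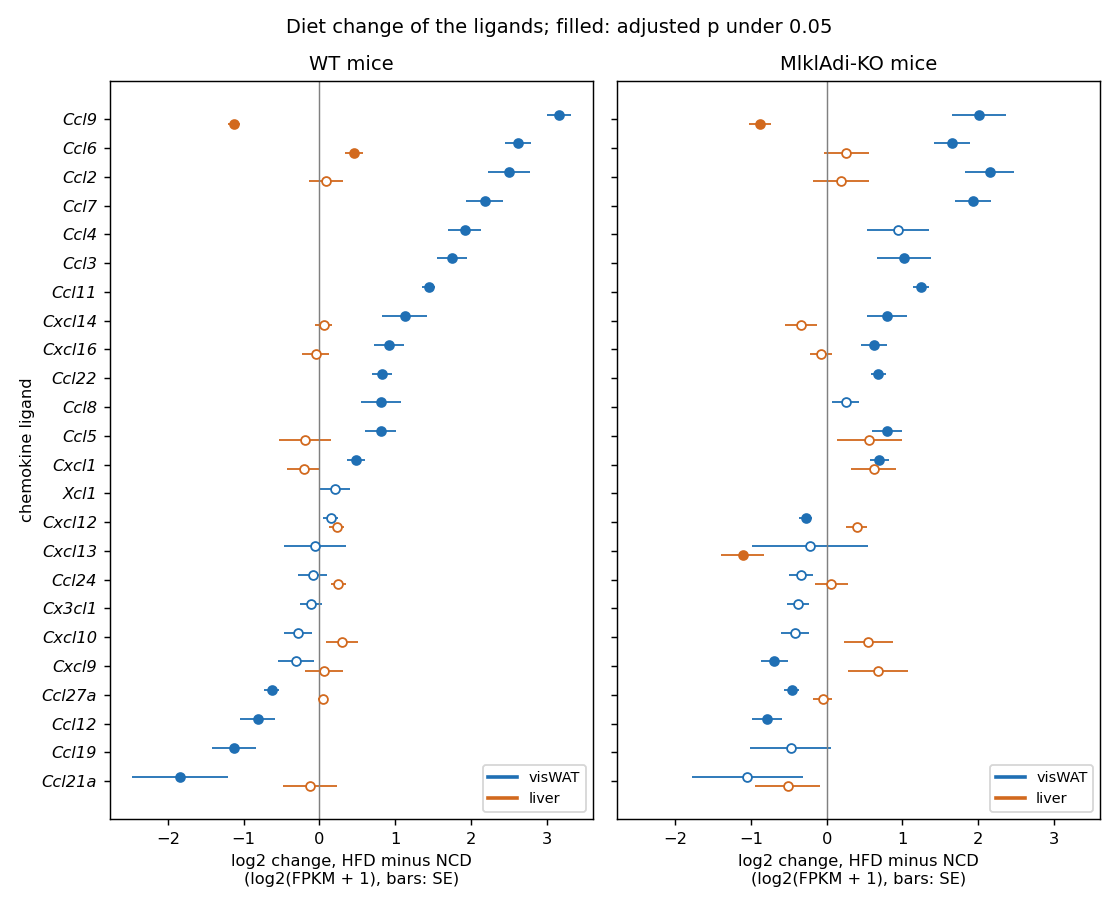
Log2 fold change of HFD against NCD in visWAT and liver for each ligand tested in visWAT, in WT (left) and MlklAdi-KO mice (right), on the scale of log2(FPKM + 1), with bars for the SE and filled points for an adjusted p under 0.05. Ccl9, Ccl6, Ccl2 and Ccl7 are at 1.66 or more in visWAT of both genotypes, and Ccl9 is below 0 in liver.

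The next question was whether loss of Mlkl in adipocytes changed the ligands under HFD. No ligand of 24 tested in visWAT was called by limma, and 0.0215% of all tested genes were called (0.0143% higher, 0.00716% lower). An unadjusted p under 0.05 was found for 7 of the 24 ligands and for 3003 of all 13963 tested genes. edgeR called none and DESeq2 called 1, Ccl5 (adjusted p = 0.0176). Ccl5 was at 5.01, 5.32, 8.73, 6.11 and 5.35 FPKM in WT mice on HFD and at 3.04, 3.51, 4.36, 3 and 4.02 FPKM in MlklAdi-KO mice. The groups did not overlap, which held for 3.01% of all tested genes (log2 difference -0.62, SE 0.137, limma adjusted p = 0.221, two-sided exact permutation p = 0.00794, the smallest that 5 against 5 mice allow). This permutation p is not adjusted for the choice of Ccl5 among the 24 ligands.

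The ligands with the next smallest p in that comparison overlapped between genotypes. Ccl4 was at 2.20 to 5.55 FPKM in WT and 0.141 to 3.69 FPKM in MlklAdi-KO mice on HFD (log2 difference -1.10, SE 0.386, limma adjusted p = 0.221). Cxcl14 was at 5.77, 7.68, 6.30, 4.41 and 6.08 FPKM in WT mice and at 3.13, 4.78, 6.16, 1.93 and 1.96 FPKM in MlklAdi-KO mice (log2 difference -0.69, SE 0.249, limma adjusted p = 0.221). Mice 156 and 157 were the lowest for both genes. Ccl2 and Ccl7 had similar means in the genotypes, at 15.8 ± 5.3 and 14.9 ± 6.1 FPKM for Ccl2 and 15.1 ± 4.7 and 13.9 ± 3.3 FPKM for Ccl7 (SD, n = 5 each).

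On NCD, none of 21 tested ligands was called between genotypes in visWAT by limma, edgeR or DESeq2, and of all tested genes 0% were called by limma. An unadjusted p under 0.05 was found for 5 of the 21 ligands and for 528 of all 14063 tested genes. The 3 ligands with the smallest p were all higher in MlklAdi-KO mice and all separated without overlap, as were 2.46% of all tested genes. Ccl9 and Ccl6, whose values by mouse are given above, had log2 differences of 0.65 (SE 0.180) and 0.57 (SE 0.168). Cxcl12 was at 19.4, 18.3, 15.6 and 13.6 FPKM in WT mice on NCD and at 20.1, 21.5, 25.4 and 22.8 FPKM in MlklAdi-KO mice, a log2 difference of 0.41 (SE 0.126). The limma adjusted p of each was 0.916, and the two-sided exact permutation p was 0.0286, the smallest that 4 against 4 mice allow. These 3 were chosen by their p among the 21, which favours separation, and the permutation p is not adjusted for that choice. Without mice 182 and 183, none of 22 tested ligands was called, and the log2 differences of Ccl9, Ccl6 and Cxcl12 were 0.62, 0.60 and 0.23. Rescaling to TPM moved the median of all genes by 0.275 on the log2 scale in this comparison. Macrophage markers summed to 191 to 287 FPKM in these WT mice and 247 to 423 FPKM in the MlklAdi-KO mice, and their part was not tested.

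The difference between the genotypes in the response to HFD was tested as an interaction over the 18 visWAT libraries. None of 23 ligands was called by limma, edgeR or DESeq2, and 0% of all tested genes were called by limma. An unadjusted p under 0.05 was found for 3 of the 23 ligands and for 1867 of all 14136 tested genes. The 3 ligands were Cxcl12, Ccl6 and Ccl9, with interaction terms of -0.43, -0.96 and -1.15 on the log2 scale and limma adjusted p of 0.326, 0.326 and 0.329. For Cxcl12, the values on HFD were 18.4, 18.8, 19.9, 17.9 and 17.5 FPKM in WT and 17.9, 18.8, 19.2, 19.8 and 15.9 FPKM in MlklAdi-KO mice, with overlapping ranges. Without mice 182 and 183, none of 23 ligands was called either. The calls of Ccl21a, Ccl19, Ccl4 and Ccl8 in WT mice and their lack in MlklAdi-KO mice are therefore not shown to differ between genotypes.

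**Figure D4:**
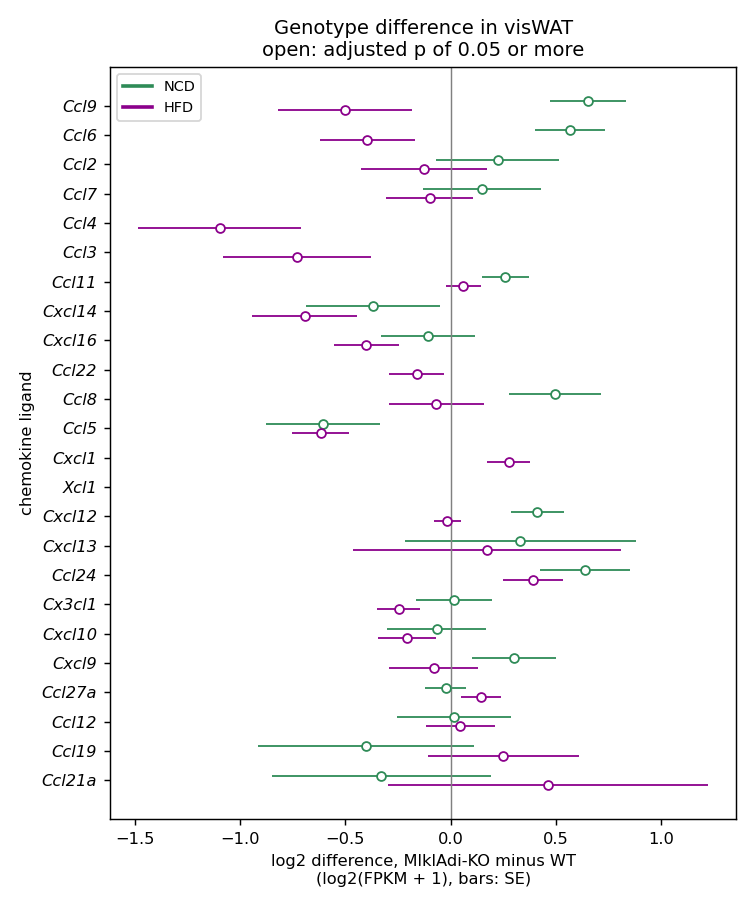
Log2 difference of MlklAdi-KO minus WT mice in visWAT for each tested ligand on NCD and on HFD, on the scale of log2(FPKM + 1), with bars for the SE. All points are open, since none had an adjusted p under 0.05, and Ccl4 on HFD is the farthest from 0, at -1.10.

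The liver showed another pattern. Under HFD, WT livers had 1 ligand higher and 1 lower of 15 tested, against 13.2% and 12.1% of all tested genes, 25.3% in all. Without overlap between the diets 2 of the 15 were separated, against 24.8%. Ccl9 was at 27.9, 29.9, 29.0 and 24.6 FPKM in the WT livers on NCD and at 12.3, 11.9, 11.8, 14.1 and 11.1 FPKM on HFD. The groups were well apart, and the level fell to a ratio of 0.440 (log2 fold change -1.12, SE 0.0785, limma adjusted p = 3.89e-05), whereas the same gene rose in visWAT of the same mice.

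Ccl6 in WT liver was at 2.49, 2.32, 2.02 and 1.29 FPKM on NCD and at 3.52, 3.24, 2.96, 2.72 and 3.16 FPKM on HFD (log2 fold change 0.46, SE 0.121, limma adjusted p = 0.022). All HFD livers were above all NCD livers, but the call was lost without mouse 154 (adjusted p = 0.0514) and without both mice 182 and 183 (adjusted p = 0.0595). In that setting Ccl2 was called higher in its place (log2 fold change 0.47, limma adjusted p = 0.0254), and the counts were again 1 higher and 1 lower of 15. Kupffer cell markers, which mark the resident liver macrophages, summed to 38.9 to 59.2 FPKM on NCD and 55.3 to 72.0 FPKM on HFD in WT livers, and hepatocyte markers to 55480 to 63130 and 42330 to 49160 FPKM. Their part in the 2 changes was not tested.

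In MlklAdi-KO livers 2 ligands of 16 tested were lower on HFD and none higher, against 10.3% of all tested genes lower and 11.9% higher, 22.2% in all. The groups of 2 ligands, the same 2, did not overlap, against 21.5% of all tested genes. Ccl9 was at 25.4, 35.4, 24.4 and 24.8 FPKM on NCD and at 16.5, 12.5, 11.1, 16.8 and 15.6 FPKM on HFD (log2 fold change -0.88, SE 0.147, limma adjusted p = 0.00285), again without overlap. Cxcl13 was at 2.78, 1.60, 3.97 and 1.08 FPKM on NCD and at 0.16, 0.906, 1.08, 0.450 and 0.0532 FPKM on HFD (log2 fold change -1.11, SE 0.284, limma adjusted p = 0.0209). The lowest mouse on NCD lay just above the highest on HFD, and the call was lost without mouse 166 (adjusted p = 0.0588) or mouse 197 (adjusted p = 0.0557).

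Cxcl12, the most abundant ligand of the liver, was at 44.6, 41.2, 52.6 and 43.3 FPKM in WT livers on NCD and at 57.8, 49.1, 61.8, 54.1 and 44.5 FPKM on HFD. In MlklAdi-KO livers it was at 39.4, 38.0, 52.9 and 37.8 FPKM on NCD and at 44.0, 51.0, 57.7, 60.0 and 65.1 FPKM on HFD. The means were higher on HFD in both genotypes, with overlapping ranges and no call (log2 fold changes 0.23 and 0.40, limma adjusted p = 0.147 and 0.0597). Ccl27a, the third most abundant, was at 4.88, 4.81, 4.16 and 4.70 FPKM in WT livers on NCD and at 4.47, 4.78, 5.24, 4.64 and 4.96 FPKM on HFD (limma adjusted p = 0.615).

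**Figure D5:**
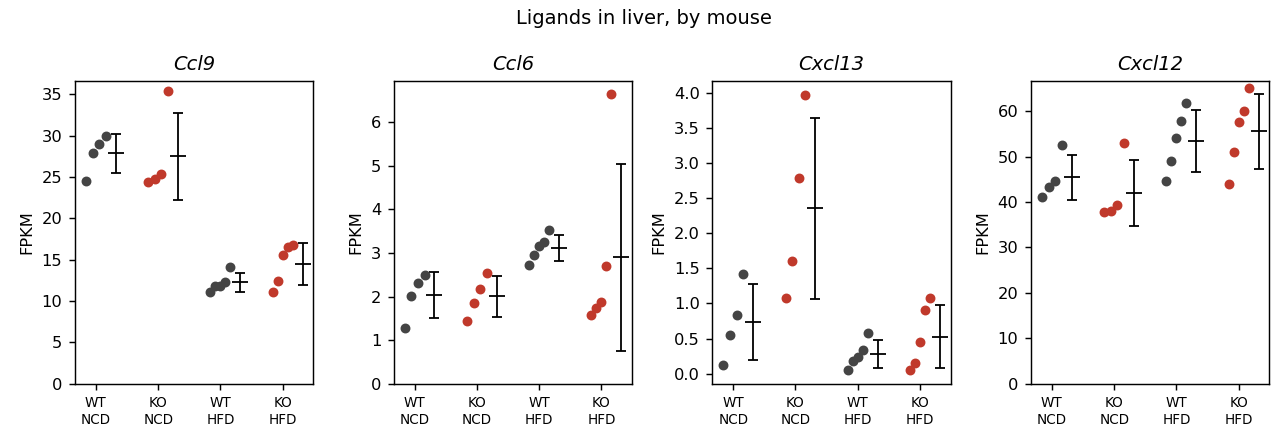
FPKM of Ccl9, Ccl6, Cxcl13 and Cxcl12 in liver on a linear scale, with 1 point for each of the 18 mice and the mean and SD of each of the 4 groups (KO: MlklAdi-KO). Ccl9 lies lower on HFD than on NCD in both genotypes, while Cxcl12 overlaps between the diets.

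Between genotypes no ligand was called in liver. On HFD, 15 were tested, and 0.197% of all tested genes were called (0.129% higher, 0.0681% lower). An unadjusted p under 0.05 was found for 1664 of all 13215 tested genes and for 1 ligand. That ligand was Ccl27a, at 4.30, 3.46, 4.86, 4.18 and 4.09 FPKM in MlklAdi-KO livers against the WT values above (log2 difference -0.17, limma adjusted p = 0.361). The next were Ccl9 (log2 difference 0.21, limma adjusted p = 0.47) and Cxcl14, at 0.887, 0.847, 1.20, 1.06 and 1.23 FPKM in WT and 0.368, 1.71, 0.781, 0.409 and 0.368 FPKM in MlklAdi-KO livers (log2 difference -0.29, limma adjusted p = 0.549). edgeR and DESeq2 called none of the 15 either.

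On NCD, 16 ligands were tested, and 0.00758% of all tested genes were called. An unadjusted p under 0.05 was found for 574 of all 13193 tested genes and for 1 ligand. It was Cxcl13, at 1.42, 0.557, 0.126 and 0.834 FPKM in WT livers against the higher MlklAdi-KO values given above, with an overlap between mouse 165 and mouse 199 (log2 difference 0.93, limma adjusted p = 0.996). The next were Cxcl1, at 3.55, 2.90, 7.15 and 5.17 FPKM in WT and 3.59, 3.22, 3.29 and 1.77 FPKM in MlklAdi-KO livers, and Cxcl9, at 3.33, 1.84, 4.91 and 2.64 FPKM and at 1.13, 3.66, 1.40 and 2.64 FPKM (log2 differences -0.49 and -0.40). The interaction in liver called none of 16 ligands and 0.0151% of all tested genes. An unadjusted p under 0.05 was found there for 811 of all 13248 tested genes and for 1 ligand. That 1 was Cxcl1 (0.83 on the log2 scale, limma adjusted p = 0.81), followed by Cxcl13 and Cxcl14 (-0.71 and -0.40). edgeR and DESeq2 called none of the ligands in either of these comparisons, and neither did limma without mice 182 and 183.

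The mice gave both tissues, so the level in visWAT minus that in liver was taken within each mouse on the log2 scale. This difference was then compared between the mice on HFD and those on NCD. This comparison was added after the values had been seen. In WT mice, 11 of 23 ligands responded more upward in visWAT than in liver and 2 more downward, against 20.2% and 16.2% of all tested genes, 36.4% in all. Ccl9 stood out, with a rise in visWAT and a fall in liver that differed by 4.29 on the log2 scale (SE 0.196, limma adjusted p = 2.32e-06). Ccl2 differed by 2.41, Ccl6 by 2.16, Ccl4 by 2.11, Ccl7 by 2.001, Ccl3 by 1.85 and Ccl11 by 1.41, and Ccl3, Ccl4, Ccl7 and Ccl11 were under 0.5 FPKM in liver on both diets. Without mice 182 and 183, 14 ligands were called, 10 more upward and 4 more downward, with Cxcl1 no longer called (0.32, limma adjusted p = 0.252) and Ccl19 and Cxcl12 called downward (-1.51 and -0.33, limma adjusted p = 0.0109 and 0.0438). In MlklAdi-KO mice 7 differed upward and 3 downward, against 21.1% and 18.3%, 39.4% in all, with Ccl9 (2.89), Ccl2 (1.96), Ccl7 (1.74) and Ccl6 (1.40) again the farthest upward.

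Levels were last compared between the tissues in WT mice, where tissue cannot be told apart from the RNA kit and the library scaling, which differed between visWAT and liver. On NCD, 11 of 21 tested ligands were higher in visWAT and 5 in liver, against 31.5% and 34% of all tested genes, 65.5% in all. The tissues did not overlap for 14 of the 21, against 61.1% of all tested genes. Of the 11, Ccl7, Ccl8, Ccl11, Ccl12 and Ccl24 were under 0.5 FPKM in liver and were tested through their level in visWAT, and Cxcl1 was under 0.5 FPKM in visWAT. Without mice 182 and 183, 18 ligands were called, 14 higher in visWAT and 4 in liver, with Ccl27a and Cxcl13 no longer called (limma adjusted p = 0.127 and 0.0705) and Ccl2, Ccl5, Cxcl10 and Cxcl16 called higher in visWAT. The largest differences in visWAT were those of Ccl21a (log2 difference 4.53), Ccl11 (4.17), Ccl8 (3.41) and Ccl6 (3.13). Higher in liver were Cxcl1 (-1.91), Ccl9 (-1.44), Cxcl12 (-1.40), Ccl25 (-0.41) and Ccl27a (-0.34). Rescaling to TPM moved the median of all genes by 0.490, left 16 ligands higher in visWAT and 2 higher in liver, and turned Ccl27a to 0.20 (adjusted p = 0.557).

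On HFD, 17 of 22 tested ligands were higher in visWAT and 4 in liver, against 41.6% and 43% of all tested genes, 84.6% in all, with Cxcl10 the single ligand not called. Of the 17, Ccl3, Ccl4, Ccl7, Ccl8, Ccl11, Ccl22, Cx3cl1 and Cxcl13 were under 0.5 FPKM in liver and entered the test through visWAT, and Ccl25 was under 0.5 FPKM in visWAT, so that the count describes the ligands that could be tested. The tissues did not overlap for 18 of the 22, against 76.3%. Ccl9 had turned, at a log2 difference of 2.85 toward visWAT. Ccl11 (5.59), Ccl6 (5.29), Ccl7 (3.68) and Ccl2 (3.25) also differed widely, and Ccl8, at a mean of 21.9 FPKM in visWAT, was at 0 in each of the 5 livers. Still higher in liver were Cxcl12 (-1.47), Cxcl1 (-1.22), Ccl27a (-1.02) and Ccl25 (-0.67).

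Some receptors of these ligands also changed with diet in visWAT, and their changes were not tested against those of the ligands. Of 17 chemokine receptors, 7 were high enough to test in WT mice, 5 were higher on HFD, against 21.9% of all tested genes, and 1, Ccr10, was lower, against 15.8% (log2 fold change -0.40, limma adjusted p = 0.0182), a call that was lost on the TPM scale. Cxcr4, the receptor of Cxcl12, rose from 5.14 ± 0.78 to 13.7 ± 0.87 FPKM while its ligand was not called (log2 fold change 1.26, limma adjusted p = 7.88e-06). Ccr2 rose from 1.83 ± 0.49 to 5.06 ± 0.69 FPKM and Ccr1 from 0.651 ± 0.23 to 2.21 ± 0.41 FPKM. Ccr7, whose ligands Ccl19 and Ccl21a fell, rose from 0.414 ± 0.15 to 1.30 ± 0.43 FPKM and was tested through its level on HFD, and Cxcr3, whose ligands Cxcl9 and Cxcl10 were not called, from 0.736 ± 0.28 to 1.73 ± 0.34 FPKM.

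In MlklAdi-KO mice 6 receptors were tested, and Cxcr4, Ccr2, Ccr7 and Cxcr3 rose (log2 fold changes 0.85, 0.68, 0.49 and 0.41), beside 23.3% of all tested genes. Ccr7 again had a mean under 0.5 FPKM on NCD, 0.253 FPKM. Of the 5 atypical receptors, which bind chemokines without G protein signalling, 4 were tested, and 3 were higher in WT mice (Ccrl2, Ackr2 and Ackr1) and 2 in MlklAdi-KO mice. Of 20 tested genes of receptor signalling, 16 were higher and 1 lower in WT mice, against 21.9% and 15.8% of all tested genes, and 13 higher and 1 lower in MlklAdi-KO mice, against 23.3% and 20.3%. Pf4, the platelet and macrophage ligand outside the rule, rose in WT visWAT from 33.8 ± 1.8 to 83.1 ± 14 FPKM. In MlklAdi-KO visWAT Pf4 and Ppbp were both tested by diet, and neither was called by limma.

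Between genotypes in visWAT on HFD, 3 of the 7 tested receptors had an unadjusted p under 0.05, beside 3003 of all 13963 tested genes. None of the 7 was called by limma or edgeR, and DESeq2 called 1, Cxcr4. It was at 12.9 to 15.1 FPKM in WT and 5.53 to 9.39 FPKM in MlklAdi-KO mice on HFD, without overlap, with means of 13.7 ± 0.87 and 7.18 ± 1.8 FPKM (SD, n = 5 each). The log2 difference was -0.87 (SE 0.133, limma adjusted p = 0.0998), with an adjusted p of 0.112 in edgeR and 1.19e-05 in DESeq2. On NCD none of 6 tested receptors was called by limma, edgeR or DESeq2, and 3 had an unadjusted p under 0.05, beside 528 of all 14063 tested genes. The interaction called none of 7, with 2 at an unadjusted p under 0.05, beside 1867 of all 14136 tested genes. In liver 2 receptors were high enough to test by diet in WT mice and 1 in MlklAdi-KO mice, and none was called by limma, edgeR or DESeq2 or had an unadjusted p under 0.05.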

How the data were processed

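Libraries were made from polyA RNA and sequenced as paired reads; visWAT RNA was extracted with TRIzol or QIAzol and liver RNA with a column kit. The authors trimmed reads with fastp, aligned them with HISAT2 to mm39 and counted them on genes with featureCounts 1.5.0-p3; annotation release, strand setting and treatment of reads with several matches are not given in the sources used here. The deposited FPKM of all genes in 36 libraries were used. The raw counts deposited by the authors for 4 genotype comparisons cover only the genes listed there and were used to check the FPKM. The authors' fold changes, p-values and enrichment tables were not used, and 72 further per-sample columns were left out.

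Genes with a mean of at least 0.5 FPKM over the libraries of a fit were tested with limma 3.58.1 (empirical Bayes with a trend) in R 4.3.3 on log2(FPKM + 1), which understates changes of low genes, with Benjamini-Hochberg adjustment over all genes and a threshold of 0.05. Each diet and genotype contrast was fitted on its 2 groups and the interaction on the 4 groups of a tissue. Every FPKM value came out as whole reads within 0.01 of a read (100% of values), so edgeR 4.0.16 (quasi-likelihood) and DESeq2 1.42.0 were run on those reads as alternatives. The authors' FPKM used a library size that, divided by the sum of gene reads, was 1.01 to 1.40 for visWAT libraries and 0.737 to 0.812 for those of liver, hence the fits on TPM and on TMM-scaled values. Also tried were an added 0.1 FPKM, testing every gene, a limit of 1 FPKM, fitting 4 groups together and leaving out each mouse. Scripts were tested on simulated data. No 2 of the 64 pairs of replicates agreed within counting noise. Each library is a separate mouse, and visWAT and liver libraries of a number share a mouse by the labels. With 20875463 to 30322171 reads on genes, counting error is small beside the spread between mice except for the lowest genes.

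The ligands, the lists and the rules for naming genes were chosen with earlier results of these data known. In each comparison up to 12 called ligands with the largest changes were given with values, and mouse by mouse the 3 most abundant of each tissue, the 8 largest called changes by diet in WT mice, and the 3 smallest p of each genotype contrast and interaction. A withheld item of the pathway list is not reported here.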

Additional observations from a re-analysis of the deposited data

Results flagged for a closer look

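In 12 of 156 groups of 4 or 5 mice tested (7.692%), 1 mouse lay apart from the others by Dixon's criterion on log2(FPKM + 1), and chance alone flags about 1 group in 20. In visWAT these were Ccl8 in WT HFD mouse 164 (10.7 FPKM), Ccl7 in MlklAdi-KO NCD mouse 166 (5.10 FPKM), Cxcl13 in WT NCD mouse 165 (3.18 FPKM), Ccl19 in MlklAdi-KO HFD mouse 156 (4.18 FPKM), Ccl22 in WT HFD mouse 155 (1.89 FPKM) and Ccl22 in MlklAdi-KO HFD mouse 157 (0.549 FPKM). In liver they were Ccl9 in MlklAdi-KO NCD mouse 179 (35.4 FPKM), Cxcl12 in MlklAdi-KO NCD mouse 197 (52.9 FPKM), Cxcl1 in MlklAdi-KO NCD mouse 199 (1.77 FPKM), and in MlklAdi-KO HFD mouse 152 Ccl2 (3.16 FPKM), Ccl5 (8.09 FPKM) and Cxcl10 (4.63 FPKM). The liver of mouse 152 also held the highest sum of Kupffer cell markers, 144.9 FPKM against 38.2 to 66.05 FPKM in the other livers of its group, whose part in these levels was not tested.

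The response to HFD differed between visWAT and liver of the same WT mice for 13 ligands (visWAT change minus liver change, log2 scale). It was more upward in visWAT for Ccl9 (4.29), Ccl2 (2.41), Ccl6 (2.16), Ccl4 (2.11), Ccl7 (2.001), Ccl3 (1.85), Ccl11 (1.41), Cxcl14 (1.07), Ccl8 (1.05), Cxcl16 (0.97) and Cxcl1 (0.69), and more downward for Ccl12 (-0.84) and Ccl27a (-0.68). Ccl8 and Ccl12, like Ccl3, Ccl4, Ccl7 and Ccl11, were under 0.5 FPKM in WT liver on both diets. Their differences rest on visWAT. The call was lost for Cxcl14 with any of 7 of the 9 mice left out (adjusted p = 0.0598 to 0.0949), for Cxcl16 with any of 8 (0.0503 to 0.0849) and for Cxcl1 with any of 6 (0.0656 to 0.0864), for all 3 without a filter (0.0789, 0.0835 and 0.083), for Cxcl14 and Cxcl16 with an added 0.1 FPKM (0.0549 and 0.0531), for Cxcl1 without both mice 182 and 183 (0.252), and for Ccl12 and Ccl27a on the TPM scale (0.0937 and 0.232). In MlklAdi-KO mice the difference was called for 10 ligands, upward for Ccl9 (2.89), Ccl2 (1.96), Ccl7 (1.74), Ccl6 (1.40), Ccl11 (1.33), Cxcl14 (1.14) and Cxcl16 (0.70), and downward for Cxcl9 (-1.37), Ccl12 (-0.78) and Cxcl12 (-0.67). Among these, Ccl7, Ccl11 and Ccl12 were under 0.5 FPKM in MlklAdi-KO liver on both diets. The call of Cxcl9 was lost without mouse 151, 153, 157, 166, 197 or 199 (adjusted p = 0.0545 to 0.111), without a filter (0.102) and with an added 0.1 FPKM (0.0507), and with the added 0.1 FPKM those of Ccl7 (0.102) and Ccl12 (0.0763) were lost too.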

How the results depend on the processing

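With each library left out in turn, the number of ligands called by diet ranged from 14 to 17 in WT visWAT, from 12 to 18 in MlklAdi-KO visWAT, from 1 to 3 in WT liver (1 without mouse 154) and from 1 to 3 in MlklAdi-KO liver (1 without mouse 166). In all genotype contrasts and interactions it stayed at 0. Between tissues it ranged from 14 to 19 on NCD and from 21 to 23 on HFD, and for the difference in response between the tissues from 10 to 13 in WT and from 9 to 12 in MlklAdi-KO mice. DESeq2 called 1 ligand between genotypes in visWAT on HFD and 4 by diet in MlklAdi-KO liver. With the 4 groups in 1 fit WT liver had 1 call, and without a filter MlklAdi-KO liver had 1. For these the cause was not tested. Of named ligands, Ccl27a between tissues on NCD turned from -0.34 to 0.20 on the TPM scale. With the mouse as a replicate block, which the labels give as the pairing of visWAT and liver, 17 ligands were called between tissues on NCD in place of 16, and 21 on HFD as without it. In WT mice, the only ones examined for this, deviations of visWAT and liver of the same mouse correlated at -0.078 to 0.087. The difference of visWAT and liver within each mouse was the other paired analysis. Diet and genotype groups share no mice, so their contrasts could not be paired. Ligands with a mean under 0.5 FPKM over the libraries of a comparison were not tested.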
